A study of Mus musculus with 23 samples.

Results

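Presynaptic vesicle release genes encode the proteins that hold transmitter vesicles at the nerve terminal and fuse them with its membrane. They were chosen here as the protein-coding genes whose symbols belong to the synaptotagmin, syntaxin, SNAP, VAMP, synapsin, synaptophysin, Rab3, complexin, Munc13 (Unc13), RIM, Munc18 and tomosyn (Stxbp), SV2, Bassoon, Piccolo, NSF, Doc2 and ERC families. The pattern matched 77 of 37173 genes in the table, of which 18825 are protein coding. The match itself used symbols and biotype only, but the pattern and the role lists were chosen with earlier results of these data known. The 77 comprised 7 vesicle membrane and clustering proteins, 7 synaptic SNAREs and their recycling factors, 5 Munc18 and tomosyn genes, 4 complexins, 15 active zone and priming genes, 19 calcium sensors (synaptotagmins and Doc2) and 20 SNAREs of other membrane routes. Rab3b, a close relative of Rab3a, Rab3c and Rab3d, was outside the pattern and is described separately.

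RNA was taken from both hippocampi of mice of about 5 months, with 1 poly-A library per mouse, and the groups formed a 2 by 2 design. WT mice (mice 1 to 6, n = 6) carried neither change, P16KO mice (7 to 12, n = 6) were homozygous for the P16 knockout allele, APPNLGF mice (13 to 17, n = 5) were homozygous for the APP NLGF allele, and APPNLGF P16KO mice (18 to 23, n = 6) were homozygous for both and are called double mutants below. P16 is the cell-cycle inhibitor made from Cdkn2a, and APP NLGF is a knock-in allele of the amyloid precursor protein gene that carries familial Alzheimer mutations under its own promoter. Strain, sex, litter and the part of Cdkn2a that was deleted were not given in the sources used here.

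The libraries held 40693561 to 61178839 counts each, and the members together took 1.99% to 2.13% of them. Cdkn2a counts were 0 to 6 for WT, 0 to 2 for P16KO, 2 to 9 for APPNLGF and 0 to 8 for double-mutant libraries, so at this depth its count did not check the P16 labels, and every P16 direction below refers to libraries as labelled. The 12 hippocampal marker genes summed to 1417 to 1790 CPM (a gene's counts scaled to library size) across all 23 libraries, and none of the 12 was at 0 throughout. Markers of neighbouring tissues varied more between libraries. Choroid plexus markers summed to 129 CPM (WT mouse 2) to 5789 (P16KO mouse 12). Thalamus and habenula markers reached 366 CPM in WT mouse 4, with 273 the next highest, and striatum markers ran from 184 to 498, highest in P16KO mouse 7. The part of such tissue in the members' values was not tested. Of 12 microglial marker genes, 6 rose in APPNLGF against WT, and the list summed to 437 to 508 CPM for WT, 485 to 555 for P16KO, 563 to 675 for APPNLGF and 612 to 721 for double mutants. In whole tissue, fewer cells of a type and less RNA per cell cannot be told apart.

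At a terminal, vesicles are filled, clustered by synapsins and brought to the active zone, a protein scaffold built of RIM, ERC, Bassoon and Piccolo that holds calcium channels next to docked vesicles. Munc13 and Munc18 prime them by guiding the vesicle SNARE (a VAMP) onto the target SNAREs (a syntaxin and SNAP-25). Complexin clamps the assembled SNARE complex and synaptotagmin, the calcium sensor, triggers fusion, after which NSF takes the complex apart. In hippocampus these genes serve the glutamatergic pyramidal and granule cells as well as the interneurons.

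The promoter windows of 4 members called in the P16 comparison below, 3 lower and 1 higher, are shown first, because P16 acts through the retinoblastoma protein on E2F transcription factors. RefSeq windows (GRCm38.p6, 250 bases before to 50 after a start site) were at hand for 59 of the 77 members, in 75 windows. Of the other called members, Rims2 and Syn3 had no window. Stx6 and Snap47, both higher, had windows not printed here, with 63.3% and 65.0% G or C and 20 and 27 CpG dinucleotides. The windows are written 5′ to 3′ on the gene's own strand, with capitals marking GGGCGG, the Sp1 core, on either strand. Rims1, Erc1 and Unc13c (all lower in libraries labelled with the P16 knockout) lie at chr1:22806109-22806408, chr6:119848101-119848400 and chr9:73968988-73969287, all on the minus strand, and Rab3a (higher) at chr8:70754453-70754752 on the plus strand.
Rims1: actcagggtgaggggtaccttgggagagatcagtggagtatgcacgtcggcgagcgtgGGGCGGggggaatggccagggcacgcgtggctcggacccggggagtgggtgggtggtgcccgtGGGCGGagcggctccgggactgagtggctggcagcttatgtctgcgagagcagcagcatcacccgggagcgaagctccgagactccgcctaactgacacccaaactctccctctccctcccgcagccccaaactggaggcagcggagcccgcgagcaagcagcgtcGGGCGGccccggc
Erc1: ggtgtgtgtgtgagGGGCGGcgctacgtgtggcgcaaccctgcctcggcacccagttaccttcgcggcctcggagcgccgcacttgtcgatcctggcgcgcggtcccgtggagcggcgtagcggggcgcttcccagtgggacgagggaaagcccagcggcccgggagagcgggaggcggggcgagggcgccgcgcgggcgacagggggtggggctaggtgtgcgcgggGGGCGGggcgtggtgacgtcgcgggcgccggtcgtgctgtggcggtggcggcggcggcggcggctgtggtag
Unc13c: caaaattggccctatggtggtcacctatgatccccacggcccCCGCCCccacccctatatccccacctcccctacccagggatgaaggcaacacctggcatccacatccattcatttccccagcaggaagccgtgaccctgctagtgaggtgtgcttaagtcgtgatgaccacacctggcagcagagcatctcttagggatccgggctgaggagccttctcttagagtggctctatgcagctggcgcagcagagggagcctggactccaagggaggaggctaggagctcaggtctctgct
Rab3a: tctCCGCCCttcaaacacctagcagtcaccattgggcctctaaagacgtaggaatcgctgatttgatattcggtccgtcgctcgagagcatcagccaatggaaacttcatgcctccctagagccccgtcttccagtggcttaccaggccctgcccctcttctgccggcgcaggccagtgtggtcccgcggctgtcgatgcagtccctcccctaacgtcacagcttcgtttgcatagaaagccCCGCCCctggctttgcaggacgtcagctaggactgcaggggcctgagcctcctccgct

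The 3 lower genes had unlike windows. Erc1's was 77.0% G or C with 46 CpG dinucleotides, Rims1's was 69.3% with 26, and Unc13c's was 59.3% with 6, while Rab3a's was 60.0% with 18. Rab3a has another window at chr8:70754852-70755151, not printed, with 65.3% G or C and 22 CpG dinucleotides. GGGCGG occurred 3 times in Rims1's window, 2 times in Erc1's, 1 time in Unc13c's and 2 times in the printed window of Rab3a and 0 times in its other one. It was in 68.0% of member windows and 52.6% of the 18274 windows of protein-coding genes. Member windows were also richer in G or C (median 62.7%, against 58.3%) and in CpG dinucleotides (19, against 16). The shares were not compared at equal base composition. The E2F forms TTTGGCGC, TTTCCCGC, TTTCGCGC and TTTGCCGC, searched on both strands, were in none of these 4 windows and in 2.67% of member windows (those of Sv2c and Syt9), against 3.21% of protein-coding windows. The cAMP response element TGACGTCA was in the windows of Stxbp3 and Syn1 (2.67%, against 2.50%). The left part of the RE1 element, TTCAGCACC, bound in full form by the neuronal repressor REST, was in those of Syn1 and Unc13a (2.67%, against 0.44%). These matches describe letters in the windows.

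**Figure D1:**
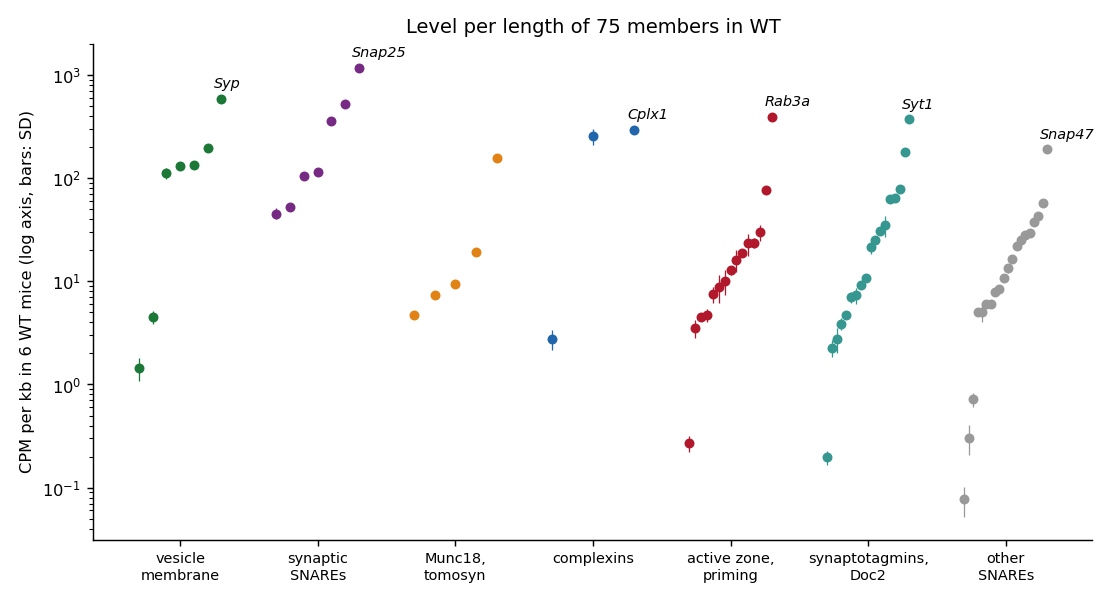
Level per length of the 75 tested members in the 6 WT mice, as CPM per kb of longest coding transcript on a log axis, by role; points are means and bars are SD. Snap25 was highest at 1177 CPM per kb, and the top member is named in 6 of the 7 roles.

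The core fusion and vesicle genes were the most abundant members. Per kb of longest coding transcript in WT, Snap25, the plasma-membrane SNARE of neurons, stood at 1177 ± 33.4 CPM per kb (SD, n = 6), Syp (synaptophysin, the major vesicle membrane protein) at 589 ± 35.6 and Vamp2, the vesicle SNARE, at 524 ± 27.8. The intervals of Syp and Vamp2 nearly touch, and Snap25 lies far above both. Rab3a, the vesicle GTPase that binds RIM, stood at 397 ± 25.03, Syt1, the fast calcium sensor, at 371 ± 11.5, and these neighbours overlapped within their SD. Cplx1 and Cplx2, the clamps on the SNARE complex, stood lower at 293 ± 22.0 and 255 ± 44.8, and their SD intervals overlapped. Syn2, a synapsin, was at 197 ± 5.02, Snap47 at 190 ± 13.8 and Syt11 at 181 ± 3.74 CPM per kb. Further down, Rab3c was at 77.3 ± 4.92, Stx12, an endosomal SNARE, at 57.6 ± 3.34 and Stxbp5 (tomosyn, which competes with VAMP) at 19.4 ± 1.29 CPM per kb.

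The roles differed in their middle level as well as at the top. The median member stood at 131 CPM per kb among vesicle proteins and 115 among synaptic SNAREs and at 255 among the 3 tested complexins, but at 12.8 in the active zone group, 16.1 among the calcium sensors, 12.0 among the other SNAREs and 9.46 in the Munc18 group. The lowest tested members of their roles included Stx11, an immune-cell syntaxin (0.077 CPM per kb), Syt15 (0.196) and Unc13d, the Munc13 of immune granules (0.269). Before scaling by length, Vamp9 was also scarce, at 0.13 to 0.32 CPM in WT beside 0.17 to 0.43 for Stx11. Cplx4, the retinal complexin on chromosome 18, had 0 to 12 counts per library and Syt8 on chromosome 7 had 0 to 3. These 2 did not pass the filter on low counts, so 75 of 77 members were tested.

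Each gene was tested for 8 comparisons in 1 model of all 23 libraries by edgeR's quasi-likelihood test, with p-values adjusted over all 19423 genes that passed the filter; a gene is called where its adjusted p was under 0.05. None of the 75 members was called in P16KO against WT (0.309% of all genes were called), in APPNLGF against WT (0.319%), in double mutant against APPNLGF (0.0309%), in double mutant against P16KO (0.247%), in the average APP effect (0.793%) or in the test for any difference among the 4 groups (3.53%). The interaction called 0% of all genes and no member, with 1021 genes at unadjusted p under 0.05. At unadjusted p under 0.05 the same test counted 13 members in P16KO against WT (17.3%, beside 15.8% of all genes), 6 in APPNLGF against WT (8%, beside 8.54%) and 23 in double mutant against APPNLGF (30.7%, beside 23.5%). It counted 4 each in double mutant against P16KO, the average APP effect and the interaction (5.33%, beside 7.89%, 10.4% and 5.26%), and 19 in any difference (25.3%, beside 24.99%). DESeq2 called 1 member in P16KO against WT (Stx6; 2.41% of all genes) and 6 in double mutant against APPNLGF (Snap47, Stx18, Erc1, Rims1, Rab3a and Cplx1; 3.48% of all genes). It called 11 in any difference (11.6% of all genes) and 12 in the average P16 effect (17.4% of all genes).

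The average P16 effect is the mean of the 2 contrasts that add the P16 knockout, on the WT and on the APPNLGF background. It called 8 of 75 members, 5 lower and 3 higher, which is 10.7%, beside 13% of all genes tested. The share of members called was near that of all genes. The median log2 change was 0.01 for members and 0.00 for all genes, and 36 members were lower and 39 higher. The lower members Rims2, Rims1, Erc1, Unc13c and Syn3 were 4 active zone and priming genes and 1 synapsin, and the higher ones were Rab3a, Snap47 and Stx6.

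**Figure D2:**
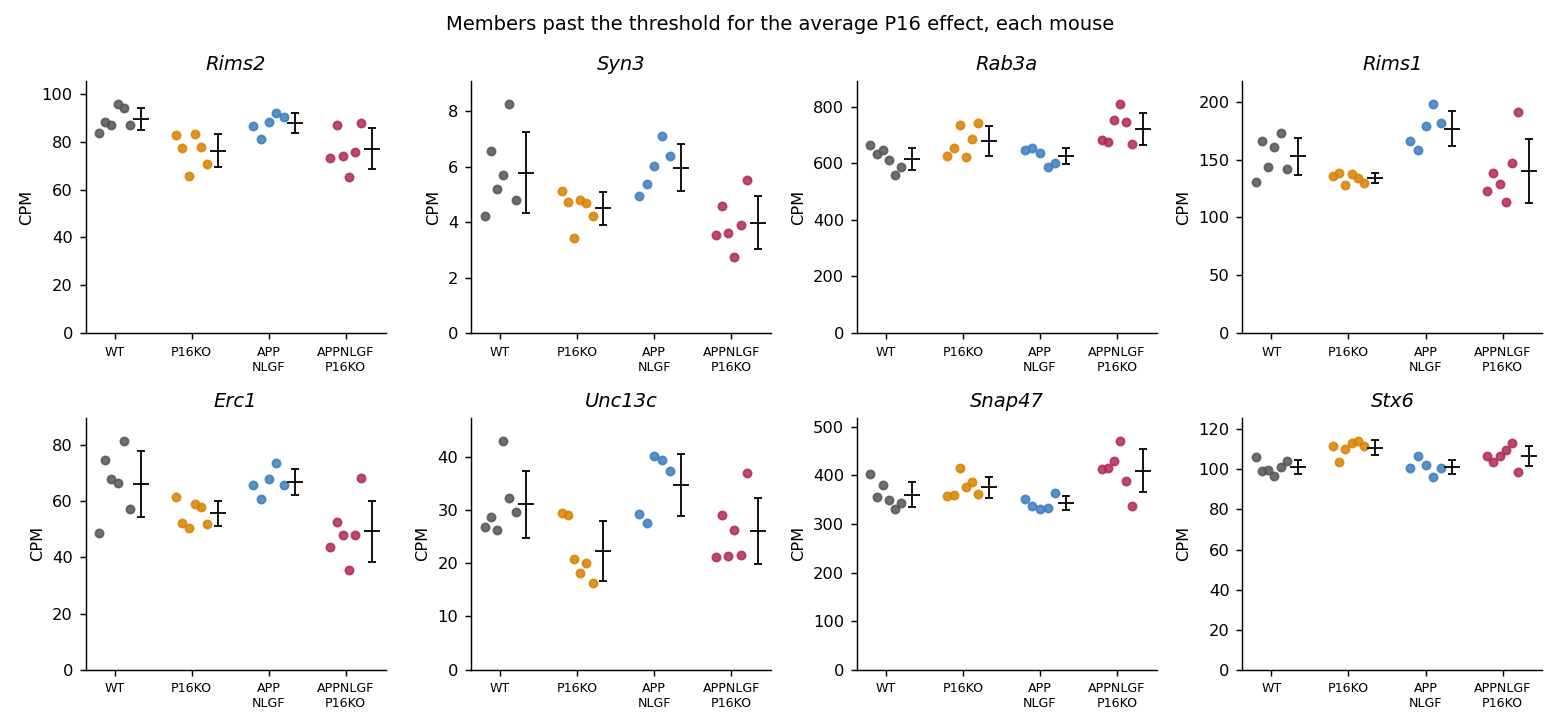
CPM of the 8 members past the threshold for the average P16 effect in each of the 23 mice, by genotype; horizontal marks are group means and bars are SD. Rims2 lies lower in every P16KO mouse (65.7 to 83.4 CPM) than in any WT mouse (83.9 to 95.9), and in the double mutants 1 mouse, number 23, lies at the APPNLGF level in most panels.

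RIM proteins tie vesicles, through Rab3, to calcium channels and Munc13. Rims2 (chr15:39198261-39684372, plus strand) stood at 83.9, 87.8 and 95.9 CPM in WT (lowest, median and highest) and at 65.7, 77.8 and 83.4 in P16KO. The 5 APPNLGF mice had 81.2, 86.6, 88.5, 90.4 and 92.1 CPM, and the double mutants 65.3, 74.96 and 87.8. P16KO lay wholly below WT, while 2 double mutants, at 87.0 and 87.8, reached the APPNLGF range. The share of all genes whose groups separate in this way was not counted, here or for the genes below. On average over both backgrounds the log2 change of Rims2 was -0.21 (SE 0.05), with adjusted p = 0.0140. It was -0.23 on the WT background (adjusted p = 0.107) and -0.18 on the APPNLGF background (adjusted p = 0.138).

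Rims1 (chr1:22286251-22805994, minus strand) stood at 131, 152 and 173 CPM in WT and in a narrow band of 128, 135 and 138 in P16KO. APPNLGF mice had the highest values, 159, 166, 179, 182 and 198, and double mutants had 113, 134 and 191. The 191 was mouse 23; the other 5 double mutants, up to 147, lay below all 5 APPNLGF mice. Its average P16 effect was -0.26 (SE 0.07, adjusted p = 0.0183). APPNLGF against WT gave 0.21 (SE 0.10, adjusted p = 0.565), which did not pass the threshold, and the ranges of these groups overlapped.

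Erc1, an ERC scaffold protein that binds RIM, stood at 48.6, 67.3 and 81.6 CPM in WT and 50.6, 55.3 and 61.7 in P16KO. APPNLGF mice had 60.9, 65.7, 65.8, 67.9 and 73.7, and double mutants 35.5, 48.1 and 68.2. WT covered the whole P16KO range, and the double mutants lay below APPNLGF except for mouse 23 at 68.2. The average P16 effect was -0.34 (SE 0.09, adjusted p = 0.0192). Unc13c (Munc13-3), a priming factor best known from cerebellum, was a low member at 26.1, 29.1 and 43.0 CPM in WT, 16.2, 20.4 and 29.4 in P16KO, 27.6, 29.2, 37.2, 39.4 and 40.0 in APPNLGF, and 21.2, 23.9 and 36.9 in double mutants. The groups overlapped on both backgrounds, with an average effect of -0.44 (SE 0.12, adjusted p = 0.0249). That call was lost without APPNLGF mouse 16 (adjusted p = 0.0586).

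Syn3, the least abundant synapsin, had 4.23, 5.44 and 8.26 CPM in WT, 3.44, 4.71 and 5.12 in P16KO, 4.93, 5.39, 6.03, 6.38 and 7.09 in APPNLGF, and 2.73, 3.75 and 5.52 in double mutants. It showed the largest change of the 8 called members, -0.47 (SE 0.11, adjusted p = 0.0148), at 156 to 442 counts per library. The groups overlapped on both backgrounds, on the APPNLGF one only through mouse 23, which had the 5.52.

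Rab3a, the vesicle GTPase, moved the other way. It stood at 561, 622 and 664 CPM in WT, 624, 672 and 743 in P16KO, 588, 601, 637, 646 and 655 in APPNLGF, and 668, 714 and 810 in double mutants. All 6 double mutants lay above all 5 APPNLGF mice, whereas WT and P16KO overlapped. The average P16 effect was 0.17 (SE 0.04, adjusted p = 0.0165), with 0.14 and 0.21 on the WT and APPNLGF backgrounds.

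The other 2 higher members belong to SNAREs of other routes. Snap47, a SNAP-25 relative, stood at 332, 353 and 403 CPM in WT, 358, 369 and 414 in P16KO, 330, 333, 337, 351 and 363 in APPNLGF, and 338, 414 and 471 in double mutants. Apart from mouse 23 (338), the double mutants exceeded every APPNLGF mouse, and the average P16 effect was 0.16 (SE 0.05, adjusted p = 0.0294). Stx6, a syntaxin of the trans-Golgi network, stood at 96.9, 100.4 and 106 CPM in WT, 104, 112 and 114 in P16KO, 96.1, 100.5, 100.6, 102 and 106 in APPNLGF, and 98.5, 107 and 113 in double mutants. Its difference was small but the groups were tight, 0.10 (SE 0.03, adjusted p = 0.0297). Both calls lay close to the threshold. Leaving out 1 mouse ended Snap47's call for 6 of the 23 mice (WT 4 and 5, P16KO 9, APPNLGF 16, double mutants 20 and 21; highest adjusted p = 0.0692) and Stx6's for 5 (WT 4 and 5, P16KO 11, APPNLGF 16 and 17; highest adjusted p = 0.0805).

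Leaving out double-mutant mouse 23 changed these counts most. Its values lay inside the APPNLGF range for 7 of the 8 called members, Rab3a being the exception, and its genotype label could not be checked from the Cdkn2a counts. Without it the average P16 effect called 24 of 75 members (9 higher, 15 lower) beside 26.5% of all genes, and double mutant against APPNLGF called 25 (13 higher, 12 lower) beside 21.5% of all genes. Without it, in that contrast, Rims1 was at -0.44 (adjusted p = 0.00492), Erc1 at -0.55 (0.00529), Syn3 at -0.70 (0.00674), Rab3a at 0.23 (0.0137), Snap47 at 0.30 (0.00493) and Stx18 at 0.20 (0.00735). With it they were at -0.33, -0.44, -0.58, 0.21, 0.25 and 0.18, with adjusted p of 0.112 each. The values with all 23 libraries are the ones reported. The members called in the average P16 effect numbered 14 without WT mouse 1 (beside 18.9% of all genes) and 5 without APPNLGF mouse 16 (beside 3.88%).

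Within the roles, the active zone group had the lowest median. Of its 15 members, 11 were lower and 4 higher in the average P16 effect, with a median log2 change of -0.22, and 1 was called higher and 4 lower. Of all genes tested, 13% were called and 50.79% were positive in that effect, with a median of 0.00. The role lists were chosen with earlier results of these data known, so these values describe the list and do not test it. The same 15 had medians of -0.19 in P16KO against WT (2 of 15 positive) and -0.31 in double mutant against APPNLGF (3 of 15 positive). Over all genes tested the medians were -0.01 (48.84% positive) and 0.01 (52.12% positive). The 2 contrasts share no library, but both show the relation to transcript length described below. Their likeness is therefore no separate test of this list. The vesicle proteins had a median of 0.07 with 5 of 7 positive and 1 called (Syn3), the synaptic SNAREs 0.02 with 5 of 7 positive and none called, and the calcium sensors 0.01 with 10 of 18 positive and none called. Munc18 and tomosyn genes had a median of -0.12 with 1 of 5 positive, complexins -0.05 with 1 of 3 positive, and other SNAREs 0.06 with 13 of 20 positive. Over all members, 48 of 75 (64.0%) had the same sign in the 2 P16 contrasts, beside 67.8% of all genes tested.

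**Figure D3:**
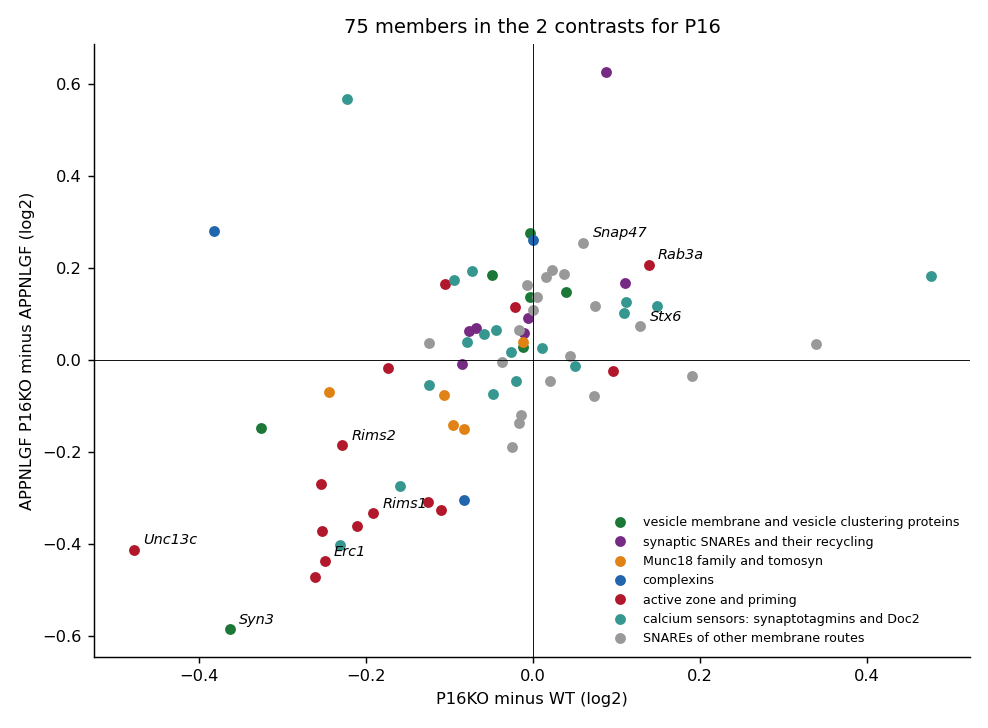
Log2 change of the 75 tested members in P16KO against WT (horizontal) and double mutant against APPNLGF (vertical), coloured by role; the 8 members called in the average P16 effect are named. Most active zone members lie in the lower left, with 28 of the 75 members.

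The lower active zone members are also among the longest transcripts. Across the 75 members, Spearman's rho between transcript length and the average P16 effect was -0.49, beside -0.33 across all 19423 genes; the points share the same libraries. Members of up to 3865 bases, their median, had a median effect of 0.03 and the longer ones -0.09, and all genes tested split at 2799 bases gave 0.06 and -0.04. For P16KO against WT the members' rho was -0.58 and for double mutant against APPNLGF -0.41, beside -0.32 and -0.27 across all genes. In the APP comparisons the members' rho was 0.03 for APPNLGF against WT, -0.19 for double mutant against P16KO and -0.215 for the average APP effect, beside -0.18, -0.20 and -0.25 across all genes.

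The same contrast can be read in single mice. The median of the 25 longest members minus that of the 25 shortest, as log2 CPM relative to the mean of the 4 group means, ran from -0.01 to 0.23 (WT), -0.14 to 0.09 (P16KO), 0.01 to 0.14 (APPNLGF) and -0.38 to 0.03 (double mutants), with the lowest value in mouse 21. Mouse 23, at -0.0001, was the second highest of the double mutants. With the trend over transcript length removed in each library, 5 members were called (Rims2, Rims1, Erc1, Syn3 and Stx6) beside 6.53% of all genes. Rims1 then fell by 0.17 and Erc1 by 0.19 on the log2 scale, in place of 0.26 and 0.34, and Syn3 fell by 0.46. Unc13c was at -0.29 (adjusted p = 0.0801), Rab3a at 0.11 (0.0551) and Snap47 at 0.11 (0.0796). What moves the length trend between mice was not tested.

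**Figure D4:**
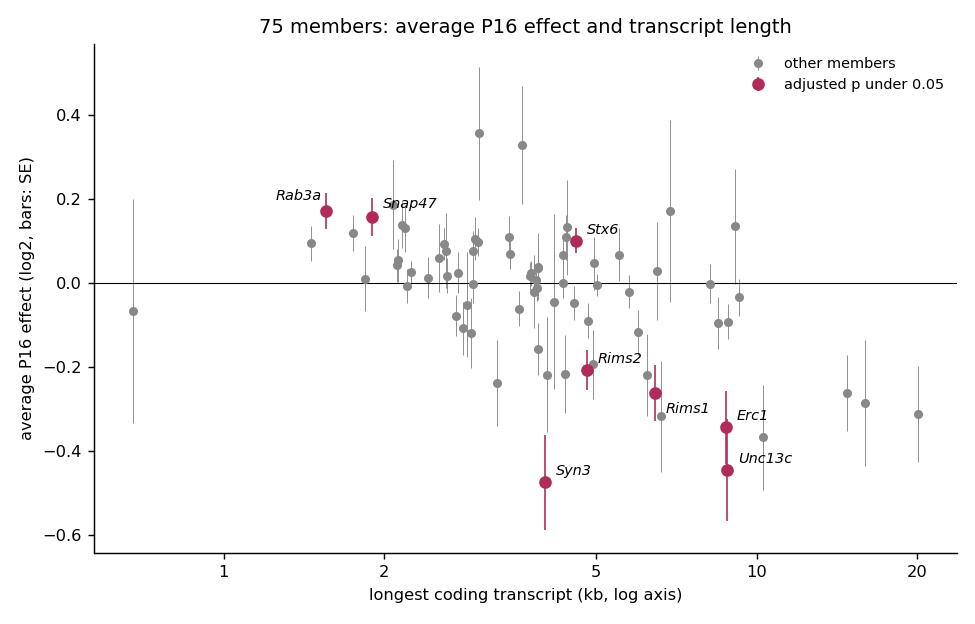
Average P16 effect (log2, bars are SE) of the 75 tested members against the length of the longest coding transcript in kb (log axis). Of the 5 called members below zero, 4 are active zone genes of 4800 to 8796 bases; Rab3a and Snap47, above zero, have 1556 and 1896 bases.

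Levels of neuron and glia markers were compared alongside. The 18 pan-neuronal markers ranged in sum over 8052 to 9011 CPM (WT), 8094 to 8510 (P16KO), 8242 to 8575 (APPNLGF) and 8073 to 9124 (double mutants). In the average P16 effect, which called 13% of all genes tested, 6 of the 18 were called higher and 2 lower. Excitatory neuron markers summed to 7246 to 8260, 7480 to 8634, 7643 to 8482 and 6878 to 8543 CPM in the same order of groups, and oligodendrocyte markers to 4864 to 6362, 4962 to 6505, 5083 to 6416 and 5244 to 8491. Astrocyte markers summed to 5752 to 6089, 5556 to 6362, 5940 to 6558 and 5853 to 6561 CPM, and endothelial markers to 231 to 255, 237 to 325, 231 to 278 and 237 to 279. In the average P16 effect, 4 of 9 astrocyte markers were called (2 higher, 2 lower), 3 of 12 microglial markers were called higher (Aif1, C1qa and Tmem119) and 2 of 8 endothelial markers lower (Flt1 and Kdr). Of 10 excitatory neuron markers 1 was called higher (Slc17a7), as was 1 of 12 interneuron markers (Cck), and no oligodendrocyte marker was called. The groups overlapped in each of these sums, none of these markers was at 0 throughout, and their part in the members' changes was not tested.

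The APP comparisons called no member. The smallest p-values for APPNLGF against WT belonged to Vamp5, a SNARE of non-neuronal tissue, at 0.35 (SE 0.13, adjusted p = 0.416), Snap29, a SNARE of many membranes on chromosome 16 with App, at -0.13 (SE 0.05, adjusted p = 0.452) and Stx18, a syntaxin of the endoplasmic reticulum, at -0.12 (SE 0.05, adjusted p = 0.487). Vamp5 was barely expressed, 1.44 to 2.24 CPM in WT and 2.00 to 2.78 in APPNLGF. Stx18, picked for its small p and not called, did not overlap between these groups, with 24.2 to 25.8 CPM in WT and 22.2 to 24.0 in APPNLGF. Double mutants had 24.1 to 27.3. As for Rims2, the share of all genes that separate in this way was not counted.

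Syt14, a synaptotagmin that does not bind calcium, had the smallest p for the average APP effect, -0.15 (SE 0.04, adjusted p = 0.131). Its ranges were 40.7 to 46.9 CPM for WT, 38.3 to 44.8 for P16KO, 36.0 to 43.0 for APPNLGF and 34.2 to 42.6 for double mutants, so all groups overlapped. Unc13d was at 0.36 (SE 0.20, adjusted p = 0.647) in APPNLGF against WT, from 0.90 to 1.35 CPM in WT and 0.95 to 1.95 in APPNLGF. In double mutant against P16KO, Stxbp5 was at -0.08 (SE 0.06, adjusted p = 0.759) and Erc1 at -0.17 (SE 0.12, adjusted p = 0.764).

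The complexins had the smallest p-values for the interaction. Cplx3, a complexin of retina and of some cortical neurons, ranged over 5.72 to 10.5 CPM for WT, 4.09 to 9.65 for P16KO, 5.74 to 8.99 for APPNLGF and 6.83 to 11.0 for double mutants. It was at 0.54 (SE 0.17, adjusted p = 0.363) in double mutant against P16KO and at 0.66 (SE 0.25, adjusted p = 0.897) in the interaction. Without P16KO mouse 8, whose 9.65 CPM is the highest of its group, the first of these was 0.72 with adjusted p = 0.0480. Cplx1 was at 0.23 (SE 0.08, adjusted p = 0.368) and 0.26 (SE 0.11, adjusted p = 0.897) in the same tests. Stx18 was at 0.16 (SE 0.07) in the interaction, and the 3 with the smallest p below zero were Stx2 at -0.15 (SE 0.09), Vamp8 at -0.30 (SE 0.21) and Cplx2 at -0.22 (SE 0.16), all with adjusted p = 0.897.

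One library set the values of a few members. Mouse 21, a double mutant, had 520.6 CPM of Vamp1, a vesicle SNARE of brainstem, spinal cord and fast-spiking neurons, while the other 22 mice had 147 to 197. Another 3 members, picked after their values were seen, stood out in it: Syt2, the fast calcium sensor of hindbrain and parvalbumin neurons (162, against 30.8 to 59.3), Sv2c, a vesicle glycoprotein of basal ganglia and brainstem (104, against 35.0 to 51.9), and Cplx1 (944, against 563 to 758). Vamp1 in double mutant against P16KO was 0.45 (SE 0.22, adjusted p = 0.633) with mouse 21 and 0.04 without it, and Cplx1 was 0.23 with it and 0.16 without. The same library had the highest oligodendrocyte (8491 CPM) and pan-neuronal (9124) marker sums of all 23. Its hippocampal (1417) and excitatory neuron (6878) sums were the lowest, while its interneuron sum (1564) ranked 3 of 23. Its thalamus and habenula (220) and striatum (266) sums each ranked 5 of 23, and its neocortex sum (505) ranked 16. The part of tissue outside the hippocampus in this library was not tested. It was the highest of 23 for 12 of the 75 members and the lowest for 17.

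**Figure D5:**
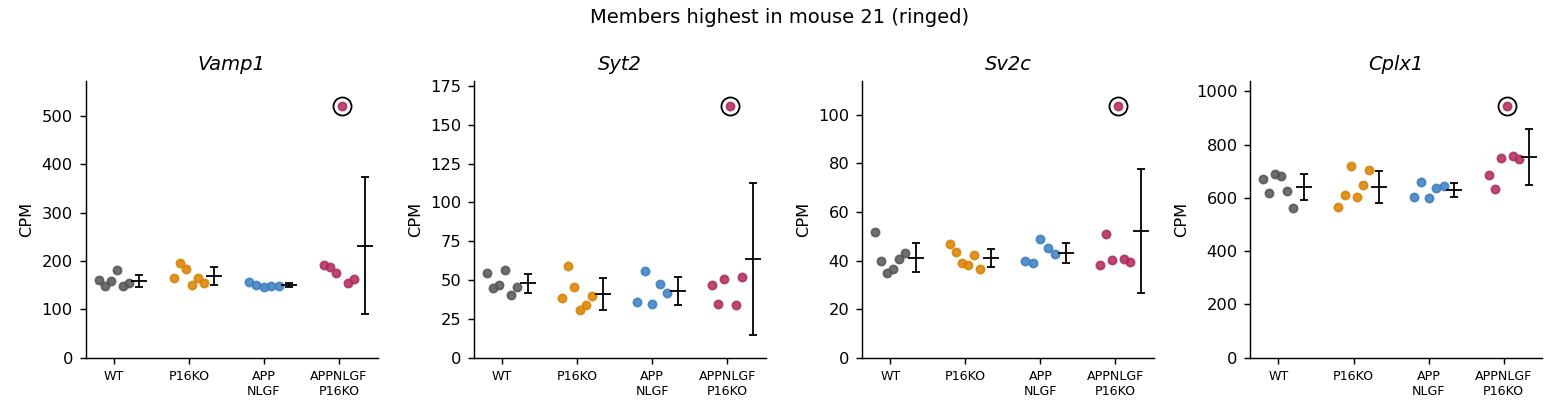
CPM of Vamp1, Syt2, Sv2c and Cplx1 in each of the 23 mice by genotype, with double-mutant mouse 21 ringed; horizontal marks are group means and bars are SD. Vamp1 is at 520.6 CPM in that mouse and at 147 to 197 in the rest.

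Among other members in P16KO against WT, Stx6 was at 0.13 (SE 0.04, adjusted p = 0.125), and Syt15 at 0.48 (SE 0.19, adjusted p = 0.228) from levels of 0.54 to 0.90 CPM in WT and 0.73 to 1.39 in P16KO. Syt1 was at -0.12 (SE 0.06, adjusted p = 0.302) and was not called. All 6 P16KO mice (1572 to 1687 CPM) lay below all 6 WT mice (1711 to 1856), but the share of all genes that separate in this way was not counted. Double mutants had 1320 to 1822 CPM and APPNLGF 1546 to 1822. Snap25 (2374 to 2595 CPM in WT, 2311 to 2714 in P16KO) and Syt11 (874 to 925 and 859 to 926) overlapped between the groups and were not called.

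The members Unc13b, Stx12, Vamp3, Rims3 and Stx17 lie on chromosome 4, which also holds Cdkn2a. None was called by the edgeR model of the 4 groups described above, which has no covariate. Unc13b (Munc13-2), a priming factor, was nearest, with an average P16 effect of -0.26 (SE 0.09, adjusted p = 0.0599), with 55.3 to 87.2 CPM for WT, 55.7 to 63.6 for P16KO, 56.2 to 74.8 for APPNLGF and 35.8 to 73.5 for double mutants. It was called in that effect by DESeq2, and by edgeR with 1 surrogate variable, with a sex score, and without any 1 of WT mouse 1, APPNLGF mouse 14 and double mutants 19 and 23. Without mouse 23, Unc13b, Stx12 and Vamp3 were called in double mutant against APPNLGF, and Stx12 also in the average P16 effect. Rims3, a short RIM, varied widely within groups, from 81.9 to 139 CPM in WT and 72.5 to 135 in P16KO. Stx12 (159 to 182 CPM in WT, 159 to 183 in P16KO), Vamp3 (30.2 to 38.6 and 32.1 to 36.0) and Stx17, the autophagosome syntaxin (33.2 to 36.6 and 29.5 to 38.1), overlapped between those groups.

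The wider pathway was read from 4 lists of other genes. Of 29 other release machinery genes tested, 1 was called in P16KO against WT: Rab3b, a Rab3 GTPase that also lies on chromosome 4, at -0.68 (SE 0.12, adjusted p = 0.0166). It stood at 51.4, 57.5 and 62.9 CPM in WT and 29.0, 35.4 and 46.3 in P16KO, with no overlap, at 51.4 to 59.9 in APPNLGF and at 36.8, 46.2 and 69.5 in double mutants, which overlapped APPNLGF (-0.16, SE 0.12, adjusted p = 0.435). The difference between the 2 backgrounds was 0.51 (SE 0.17, adjusted p = 0.897 in the interaction). Rab3b thus fell in the average P16 effect (-0.42, SE 0.09, adjusted p = 0.00929) while its relative Rab3a rose.

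In the average P16 effect, which called 13% of all genes and was positive for 50.8% of them, 1 of these 29 was called higher and 3 lower. Of 24 other vesicle proteins and transporters, 7 rose and none fell, with a median of 0.13 and 21 of 24 positive; of 25 endocytosis genes, 3 rose and 4 fell. Of 10 presynaptic calcium channel genes 2 fell and none rose: Cacna1e (R-type) by 0.33 (SE 0.09, adjusted p = 0.0246) and Cacna1b (N-type) by 0.30 (SE 0.08, adjusted p = 0.0287), both named after their values were seen. No gene of these 3 lists was called in P16KO against WT.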

How the data were processed

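Raw counts per gene from 23 hippocampal poly-A libraries were used as the authors deposited them, with no normalization, in 1 table of 37173 genes. The submitters' processing notes name cutadapt 4.2, Bowtie2 2.3.5, STAR 2.7.10b, DESeq2 1.45.3 and the builds GRCm38 and mm39; the kit keeps strand, per the labels' protocols. Positions of all 77 members equalled those of GENCODE M21 (GRCm38). Each mouse was 1 library; where mice share a litter or a cage is not given in the sources used here.

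In R 4.3.3, edgeR 4.0.16 was used with TMM factors, filterByExpr (minimum count 10) and a robust quasi-likelihood fit of the 4 groups together, adjusted by Benjamini-Hochberg over 19423 genes at 0.05, two-sided. CPM values are TMM scaled. The procedure was tested on simulated data, which gave all genes the same dispersion. The simulation held no length trend between mice and no mouse standing apart, so it did not test the calls against these. Members and lists were chosen with earlier results of these data known. Alternatives were DESeq2 1.42.0, other scaling and filters, a surrogate variable (sva 3.50.0), a sex score, length and GC trends removed by loess, the compared groups alone, a threshold of 0.1, and each mouse left out. Members named are those called in any comparison, the 3 smallest p in each direction per contrast and interaction, the 2 highest per length in each role, those failing the filter, and those on chromosomes 4 and 16. One member that this rule names is not reported here. Level per length uses the longest coding transcript in GENCODE M21, because the lengths deposited by the authors were implausibly short for some members. That choice was made after values were seen and puts Stx12, Snap25, Syn2 and Syt11 among the named members in place of Stx7, Nsf, Sv2a and Syt5. Counts cover sampling error only, and each library held 40693561 to 61178839.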

Additional observations from a re-analysis of the deposited data

Results flagged for a closer look

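In 136 groups of values (34 named members in 4 genotypes), 8 had 1 mouse standing apart from the others of its genotype by Dixon's criterion; chance gives about 1 in 20 groups, and these mice were in every analysis. Vamp1 accounted for 3 of them, with mouse 4 at 182.0 CPM among WT mice of 149 to 160, mouse 13 at 157.6 among APPNLGF mice of 147 to 150, and mouse 21 at 520.6 among double mutants of 154 to 192. Unc13c stood at 43.0 CPM in WT mouse 4, the others having 26.1 to 32.1. Mouse 4 also had the highest thalamus and habenula marker sum of all 23 libraries (366 CPM), and a link between these was not tested. Without mouse 4, Unc13c stayed called in the average P16 effect. In double-mutant mouse 23, Stx2 stood at 25.2 CPM (others 22.0 to 23.2) and Stx12 at 141.2 (others 175 to 194). Vamp8 stood at 14.4 CPM in APPNLGF mouse 15 (others 11.9 to 12.1), and Rab3c at 785.7 in double-mutant mouse 19 (others 492.8 to 596.9).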

How the results depend on the processing

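Of 1316 values of 38 named member results under alternative settings, 1282 kept direction and side of the threshold, 20 lost the call, 13 gained one and 1 reversed (Stxbp5 in double mutant against P16KO, 0.0014 with the length trend removed). Rims2, Rims1, Erc1 and Syn3 stayed called in the average P16 effect in every alternative run. Members called in that effect numbered 5 with the length trend removed and 5 to 24 with 1 mouse left out. Over all genes, that effect called 2522, but 5117 without mouse 23, 1268 with the length trend removed and 1364 with no filter. DESeq2 called 1 member in P16KO against WT (beside 2.41% of all genes), 6 in double mutant against APPNLGF (3.48%), 11 in any difference (11.6%) and 12 in the average P16 effect (17.4%), where 1 surrogate variable gave 11 (15.2%) and a sex score 11 (15.3%). Any difference also called 2 with upper-quartile factors (4.06%), 3 with 1 surrogate variable (4.1%), 5 with a sex score (4.35%), 1 with the length trend removed (1.59%), 1 with length and GC trends removed (1.96%; an alternative chosen after seeing the data), and 0 to 17 with 1 mouse left out. Leaving out 1 mouse gave 0 to 25 in double mutant against APPNLGF and 0 to 1 in double mutant against P16KO. It gave medians over members of -0.0458 to -0.0224 in P16KO against WT, 0.0073 to 0.0407 in double mutant against APPNLGF and 0.0229 to 0.0599 in the interaction. The cause of these shifts was not tested. No paired analysis was possible because the mice carry numbers 1 to 23 and the groups share none. The libraries past the distance limit came to mouse 21 alone, so that setting equals leaving it out. Depth limited Cplx4 and Syt8, at 0 to 12 and 0 to 3 counts.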
